A study of Mus musculus with 12 samples.

Results

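The genes described here are 9 genes of megakaryocytes and platelets, chosen by name: Pf4, Ppbp, Gp1ba, Gp9, Gp5, Itga2b, Itgb3, Vwf and Rab27b. Their members on the array are all probe sets (groups of short probes that read 1 transcript) that the platform annotation assigns to a single one of these symbols. This gave 12 probe sets for 8 of the 9 genes, among 45037 probe sets and 18193 genes in all. No probe set carried the name of Gp1ba, so no value is given for it. Where a gene had several probe sets, the one with the highest mean over all arrays was taken for the gene, and the others are given as checks.

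RNA was measured on 12 Affymetrix arrays, 3 for each of 4 groups. KI mice were homozygous for PU.1 Q202L, a point mutation in the Ets domain of the myeloid and lymphoid transcription factor PU.1, and WT mice were littermates from the same heterozygous breeding. ST-HSC (short-term hematopoietic stem cells) were gated as lin- Sca-1+ c-kit+ CD150- CD48+ by the sample labels, but as CD48- by the title of the series. GMP (granulocyte-monocyte progenitors) were lin- and c-kit+ without Sca-1, with CD34 and high FcgRII/III. Both came from the liver of newborns, which the study's text calls fetal liver. The strain is C57Bl/6 by the labels, while the study's own animal description names a cross of C57 with another strain. All cells of a KI animal carry the mutation, KI animals die around birth, and the corresponding KI cells are described in the study as GMP-like with intermediate CD34, so the KI and WT gates need not hold the same cells. The labels do not say how many animals lie behind a sample, so each p-value rests on sample-to-sample spread that may in part be technical.

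Megakaryocytes are the large bone marrow and fetal liver cells that shed platelets, and they arise from stem cells and from progenitors shared with the erythroid lineage. Platelets carry chemokines and adhesive proteins in their granules, and receptors for von Willebrand factor, collagen, thrombin and fibrinogen on their surface. The factors GATA1, FOG-1, FLI1, RUNX1 and NF-E2 drive these genes, and the repressor GFI1B is needed for the cells to mature. PU.1 belongs to the ETS family, like FLI1, and is best known for driving the myeloid and lymphoid lineages. Several of the genes are also read in stem cells: Itga2b marks early embryonic blood progenitors, and Vwf marks endothelium and a share of stem cells.

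Promoter sequence of GRCm38.p6 from RefSeq was at hand for 6 of the 9 genes (Pf4, Ppbp, Gp1ba, Gp9, Gp5 and Itga2b), as windows of 300 bases of which 250 lie before the annotated start. The windows were searched on both strands for 4 GATA motifs (AGATAA, its form with another first base, TGATAA, and the forms of both that end in G, written AGATAG for the former and TGATAG for the latter), the ETS motif GGAAGT, the RUNX motif in its forms TGTGGT or, with a changed middle base, TGCGGT, and the AP-1 motif TGANTCA, in which N is any base. None of the matches overlapped another. The 250 bases before the start are shown for 3 genes, 5′ to 3′ on the strand of the gene with matches in capitals, because these genes stand for the different outcomes on the arrays: Pf4 (the gene that passed the test), Itga2b (higher in every KI array without passing it) and Gp9 (level in ST-HSC).
Pf4, chr5:90772185-90772434, plus strand: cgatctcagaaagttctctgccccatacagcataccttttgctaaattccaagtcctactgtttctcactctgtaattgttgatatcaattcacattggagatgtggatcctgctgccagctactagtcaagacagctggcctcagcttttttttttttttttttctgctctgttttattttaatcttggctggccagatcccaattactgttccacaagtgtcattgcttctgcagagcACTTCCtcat
Itga2b, chr11:102469884-102470133, minus strand: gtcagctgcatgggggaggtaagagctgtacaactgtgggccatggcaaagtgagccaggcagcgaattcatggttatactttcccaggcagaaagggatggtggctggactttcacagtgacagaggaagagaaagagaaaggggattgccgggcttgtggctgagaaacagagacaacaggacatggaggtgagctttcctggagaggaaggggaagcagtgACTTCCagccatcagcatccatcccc
Gp9, chr6:87777820-87778069, plus strand: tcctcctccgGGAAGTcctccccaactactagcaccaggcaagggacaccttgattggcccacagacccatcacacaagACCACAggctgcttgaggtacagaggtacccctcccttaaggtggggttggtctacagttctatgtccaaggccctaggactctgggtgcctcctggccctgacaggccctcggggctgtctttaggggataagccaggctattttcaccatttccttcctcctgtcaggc

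The capitals in Pf4 and Itga2b are the ETS motif read on the opposite strand, at positions -10 to -5 of Pf4 and -26 to -21 of Itga2b. In Gp9 they are an ETS motif at -240 to -235 and a RUNX motif, on the opposite strand, at -171 to -166. The window of Pf4 also held a GATA motif after the start, at 37 to 42, and that of Gp9 a second RUNX motif, at 45 to 50. Over the 6 windows, 5 held the ETS motif (Pf4, Ppbp, Gp9, Gp5 and Itga2b), beside 23.8% of 32851 promoters of the same length. GATA motifs lay in 3 of the 6 (Pf4, Gp1ba and Gp5), beside 29.8% of all promoters, and the window of Gp1ba held 3 of them between -104 and -18. A RUNX motif was in 1 of 6 (Gp9; 22.4% of all) and the AP-1 motif in 1 of 6 (Ppbp; 7.81% of all). A match of letters is not evidence of binding, and the ETS motif was present in Pf4, which passed the test in ST-HSC, and also in Gp9 and Gp5, which did not.

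The values are log2 levels made by RMA, which removes background and brings arrays processed together to a common distribution. It also condenses the probes of a set to a single value. On the log2 scale a difference of 1 is a doubling. KI and WT were compared within each population with limma in 1 fit of the 4 groups, and a gene is said to have risen or fallen where the Benjamini-Hochberg adjusted p over all 45037 probe sets was under 0.05. In KI ST-HSC, 1 of the 8 measured genes rose (Pf4) and none fell, beside 1.33% of all genes that rose and 1.68% that fell. Itga2b, Itgb3, Vwf and Rab27b were also higher in all 3 KI ST-HSC arrays than in all 3 WT ST-HSC arrays, without an adjusted p under 0.05. In total 5 of 8 genes had KI arrays wholly above WT arrays and 0 of 8 wholly below, where 10.9% and 11.2% of all genes did. In GMP no gene passed (1.19% of all genes rose and 1.4% fell), 2 of 8 had KI arrays wholly above (Itga2b and Rab27b, 8.26% of all genes) and 1 of 8 wholly below (Vwf, 11.1% of all genes). The median log2 difference of the 8 genes was 1.002 in ST-HSC, beside -0.02 over all genes, and 0.01 in GMP, beside -0.03. At an unadjusted p under 0.05, limma gave 5 of 8 genes in ST-HSC (14.3% of all genes) and 1 of 8 in GMP, Rab27b (15.9% of all genes). In GMP, SAM, the permutation-based test the study used, and the methods' t-test after adjustment also gave 0 of 8.

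**Figure D1:**
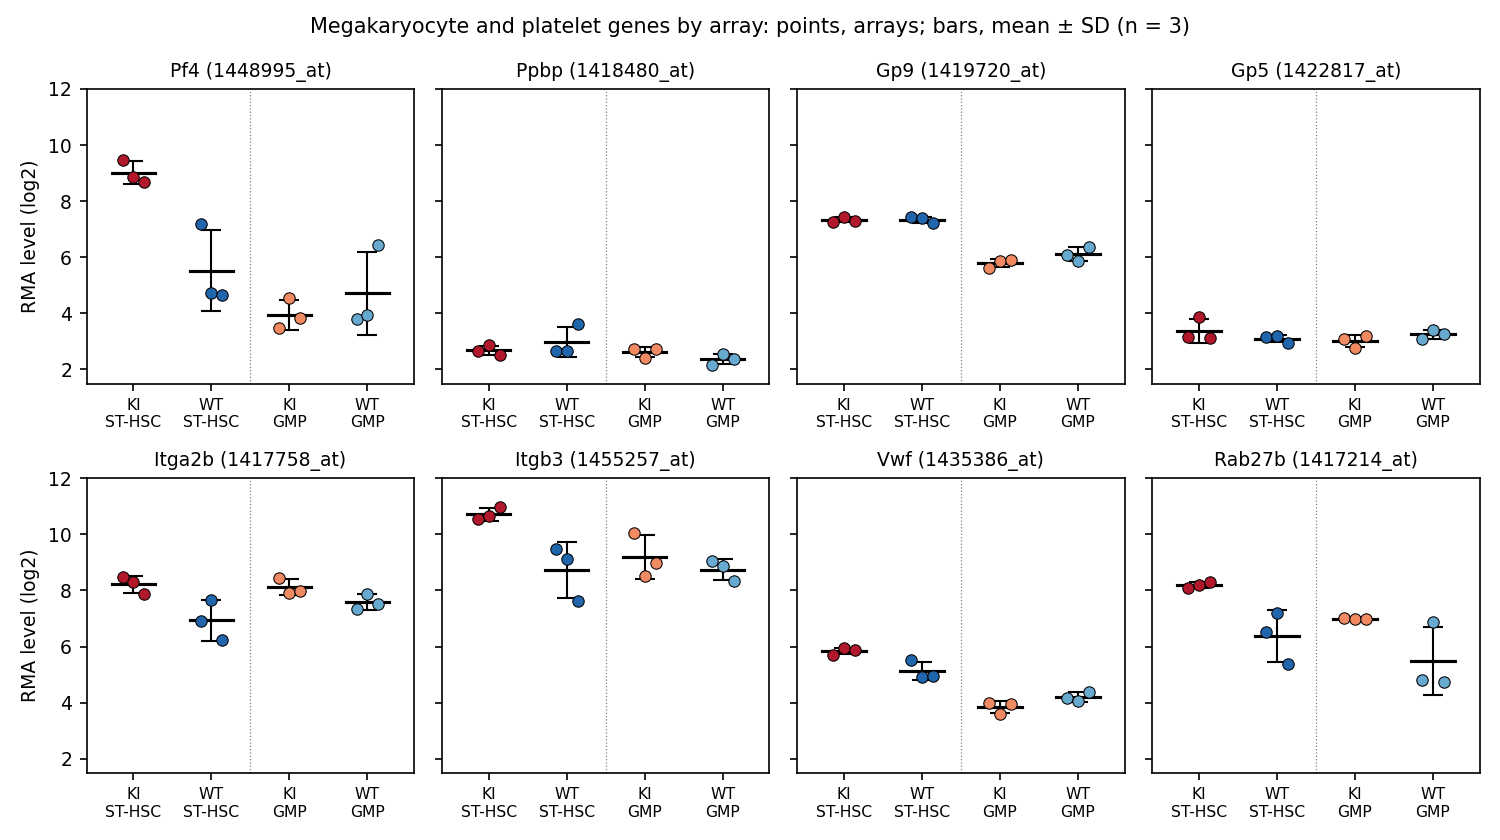
RMA log2 level (vertical axis) of the 8 measured genes in each array, with groups on the horizontal axis, points for arrays and bars for the mean ± SD of 3 arrays. In ST-HSC the KI arrays of Pf4, Itga2b, Itgb3, Vwf and Rab27b all lie above the WT arrays, while Ppbp, Gp9 and Gp5 overlap.

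Among the granule chemokines, Pf4 (platelet factor 4, a CXC chemokine, probe set 1448995_at) carried the largest difference. Its log2 levels were 9.47, 8.87 and 8.69 in KI ST-HSC and 7.18, 4.74 and 4.65 in WT ST-HSC. The KI arrays were close together at 9.01 ± 0.41 (SD, n = 3), whereas WT replicate 1 stood more than 2 log2 units above the other WT arrays and the WT mean was 5.52 ± 1.44 (SD, n = 3). The difference was 3.49 (standard error 0.78, 95% confidence interval 1.76 to 5.21), a fold of 11.2, with a limma adjusted p of 0.0483. This call lay at the threshold: it was lost without any 1 of the KI ST-HSC arrays, without WT ST-HSC replicate 2 or 3, and without 5 of the 6 GMP arrays, with adjusted p from 0.0121 to 0.161 over the 12 fits that left out 1 array. The difference itself stayed between 3.05 and 4.32 in those fits. It was also not called from the 6 ST-HSC arrays alone (adjusted p = 0.0741), by the methods' t-test (adjusted p = 0.291) or by SAM.

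In GMP, Pf4 was at 3.47, 4.54 and 3.83 in KI and at 3.80, 3.93 and 6.42 in WT. WT replicate 3 was the high array here, so the mean was 0.77 lower in KI with an interval of -2.50 to 0.95 (adjusted p = 0.756), and without that array it was 0.08 higher. The difference of the differences, GMP minus ST-HSC, was -4.26 (interval -6.70 to -1.82, limma adjusted p = 0.265), so a larger effect in ST-HSC was not shown after adjustment. Ppbp (the precursor of the chemokine NAP-2, probe set 1418480_at) is the next protein-coding gene to Pf4 on chromosome 5. In ST-HSC its levels ran from 2.52 to 2.86 (KI) and from 2.66 to 3.62 (WT), and in GMP from 2.42 to 2.73 (KI) and from 2.18 to 2.54 (WT). The highest array of Ppbp was thus a WT array, and over the arrays it lay at percentiles 0.9 to 26.4 of all probe sets, where RMA compresses differences. Its difference was -0.30 in ST-HSC (interval -0.84 to 0.24, adjusted p = 0.696) and 0.26 in GMP (interval -0.29 to 0.80, adjusted p = 0.737).

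Gp9 and Gp5 encode subunits of the GPIb-IX-V complex, the receptor that tethers platelets to von Willebrand factor. Gp9 (1419720_at) was at 7.27, 7.44 and 7.29 in KI ST-HSC and at 7.42, 7.39 and 7.22 in WT ST-HSC. The genotypes overlapped, and the difference was the smallest of the 8 genes in ST-HSC, at -0.01 with an interval of -0.34 to 0.32 (adjusted p = 0.986), which leaves out a change as large as that of Pf4. In GMP, Gp9 was at 5.63, 5.85 and 5.89 in KI and at 6.09, 5.87 and 6.37 in WT, a difference of -0.32 (interval -0.65 to 0.02, adjusted p = 0.379) with overlap between KI replicate 3 and WT replicate 2. Gp5 (1422817_at) ran from 3.12 to 3.86 in KI and from 2.95 to 3.19 in WT among the ST-HSC arrays, and from 2.78 to 3.21 in KI and from 3.09 to 3.40 in WT among the GMP arrays. It stayed at percentiles 11.8 to 29.6 of the probe sets, and its differences of 0.28 in ST-HSC (adjusted p = 0.66) and -0.23 in GMP (adjusted p = 0.709) did not pass the test.

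Itga2b and Itgb3 encode the integrin chains that pair into the platelet fibrinogen receptor. Itga2b (1417758_at) was at 8.48, 8.30 and 7.88 in KI ST-HSC and at 6.91, 7.66 and 6.23 in WT ST-HSC. The lowest KI array was 7.88 and the highest WT array 7.66, so the groups were separate by a small gap, and the difference was 1.29 (standard error 0.33, interval 0.56 to 2.01, adjusted p = 0.0844). In GMP its levels were 8.46, 7.91 and 7.99 in KI and 7.33, 7.89 and 7.52 in WT, again separate by a small gap, with a difference of 0.54 (interval -0.18 to 1.27, adjusted p = 0.522). Without WT ST-HSC replicate 2, the highest WT array, Itga2b passed in ST-HSC at a difference of 1.65 (adjusted p = 0.0159). It passed in no other of the 12 fits that left out 1 array, where adjusted p reached 0.258. Itga2b also passed in ST-HSC, at the same difference of 1.29, where the probe sets of each gene were averaged (adjusted p = 0.0484). As it has 1 probe set, averaging did not alter its values.

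Itgb3 (1455257_at) was at 10.54, 10.64 and 10.97 in KI ST-HSC and at 9.47, 9.12 and 7.61 in WT ST-HSC. All KI arrays lay more than 1 log2 unit above the highest WT array, while the WT arrays spread widely because of replicate 3. The difference was 1.98 (standard error 0.49, interval 0.91 to 3.06, adjusted p = 0.0725). It passed narrowly when probe sets with low values were left out (adjusted p = 0.0455) and with a trended, robust variance prior (adjusted p = 0.0496). Of the 12 fits that left out 1 array, 2 called Itgb3, with adjusted p from 0.0465 to 0.219. In GMP, Itgb3 was at 10.05, 8.51 and 8.99 in KI and at 9.05, 8.86 and 8.32 in WT, where KI replicate 1 stood alone above the others and the difference was 0.44 (interval -0.64 to 1.52, adjusted p = 0.785). The second probe set of Itgb3 (1421511_at) read 6.00, 5.95 and 5.86 in KI ST-HSC and 5.63, 5.80 and 5.02 in WT ST-HSC. Its difference had the same sign and was smaller, 0.45 (interval -0.19 to 1.10, adjusted p = 0.594), and in GMP it was 0.67 (adjusted p = 0.324), so by size alone the probe sets of Itgb3 differ in which population shows more.

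Vwf, which encodes the adhesive protein that GPIb-IX-V binds, was read by 1435386_at. It was at 5.71, 5.94 and 5.89 in KI ST-HSC and at 5.52, 4.93 and 4.95 in WT ST-HSC. The KI arrays lay together above the highest WT array, replicate 1, by a small gap, and the difference was 0.72 (standard error 0.19, interval 0.30 to 1.13, adjusted p = 0.096). Without that WT array it was 0.91 and passed (adjusted p = 0.0257). It passed in no other of the 12 fits that left out 1 array, where adjusted p reached 0.291. In GMP the order was turned, with 3.99, 3.59 and 3.95 in KI and 4.16, 4.05 and 4.40 in WT, a difference of -0.36 (interval -0.78 to 0.06, adjusted p = 0.44). Vwf was the gene of the 8 whose arrays were wholly separate in opposite directions in ST-HSC and GMP. Its GMP levels lay below the medians of the GMP arrays (4.70 to 4.79), where RMA compresses differences. The share of all genes that turned in this way was not counted. The difference of its differences, -1.07 (interval -1.66 to -0.49), had a limma adjusted p of 0.245. None of the 8 genes passed for this difference, beside 0.0495% of all genes.

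Rab27b encodes a small GTPase for the transport and release of platelet dense granules, and 4 probe sets read it. The one with the highest mean (1417214_at) was at 8.10, 8.20 and 8.31 in KI ST-HSC and at 6.53, 7.21 and 5.37 in WT ST-HSC, and at 7.02, 6.97 and 6.99 in KI GMP and 4.82, 6.89 and 4.72 in WT GMP. KI arrays were tight and above every WT array in both populations, and the WT arrays were spread over 1.84 log2 units in ST-HSC and 2.16 in GMP. The difference was 1.83 in ST-HSC (interval 0.60 to 3.06, adjusted p = 0.154) and 1.52 in GMP (interval 0.29 to 2.75, adjusted p = 0.225). In GMP, WT replicate 2 was the array that set the wide spread. Without that array Rab27b passed in ST-HSC at 1.83 (limma adjusted p = 0.0343) and in GMP at 2.22 (adjusted p = 0.0283). No other fit of the 12 that left out 1 array called it. Adjusted p reached 0.38 in ST-HSC and 0.485 in GMP. Xist, a gene read from the inactive X, was low in that array (3.46) and high in WT GMP replicates 1 and 3 (10.7 and 11.0).

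The second probe set of Rab27b (1417215_at), whose mean over the arrays was nearly as high, was at 7.94, 8.24 and 7.73 in KI ST-HSC and at 5.57, 6.33 and 6.72 in WT ST-HSC. Here the groups were separate by more than 1 log2 unit and the difference of 1.76 (standard error 0.35, interval 0.995 to 2.53) passed, with a limma adjusted p of 0.0263. In GMP it was at 6.63, 7.26 and 7.20 in KI and at 5.52, 6.51 and 5.43 in WT, a difference of 1.21 (interval 0.44 to 1.98, adjusted p = 0.116). The third, 1439610_at, was lower on the arrays and also separate in both populations, with differences of 1.34 in ST-HSC (adjusted p = 0.0524) and 0.71 in GMP (adjusted p = 0.32). The fourth, 1443764_x_at, lay between 3.42 and 3.88 in all arrays and differed by 0.23 in ST-HSC (adjusted p = 0.543) and 0.04 in GMP (adjusted p = 0.942). With the mean of the 4 probe sets taken for the gene, Rab27b passed in ST-HSC at 1.29 (adjusted p = 0.00394) and in GMP at 0.87 (adjusted p = 0.0368). That setting did more than combine probe sets. Itga2b, which has 1 probe set, kept its difference there but went from an adjusted p of 0.0844 to 0.0484. Whether Rab27b is called thus turns on the setting, and the part that combining its probe sets plays was not separated.

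**Figure D2:**
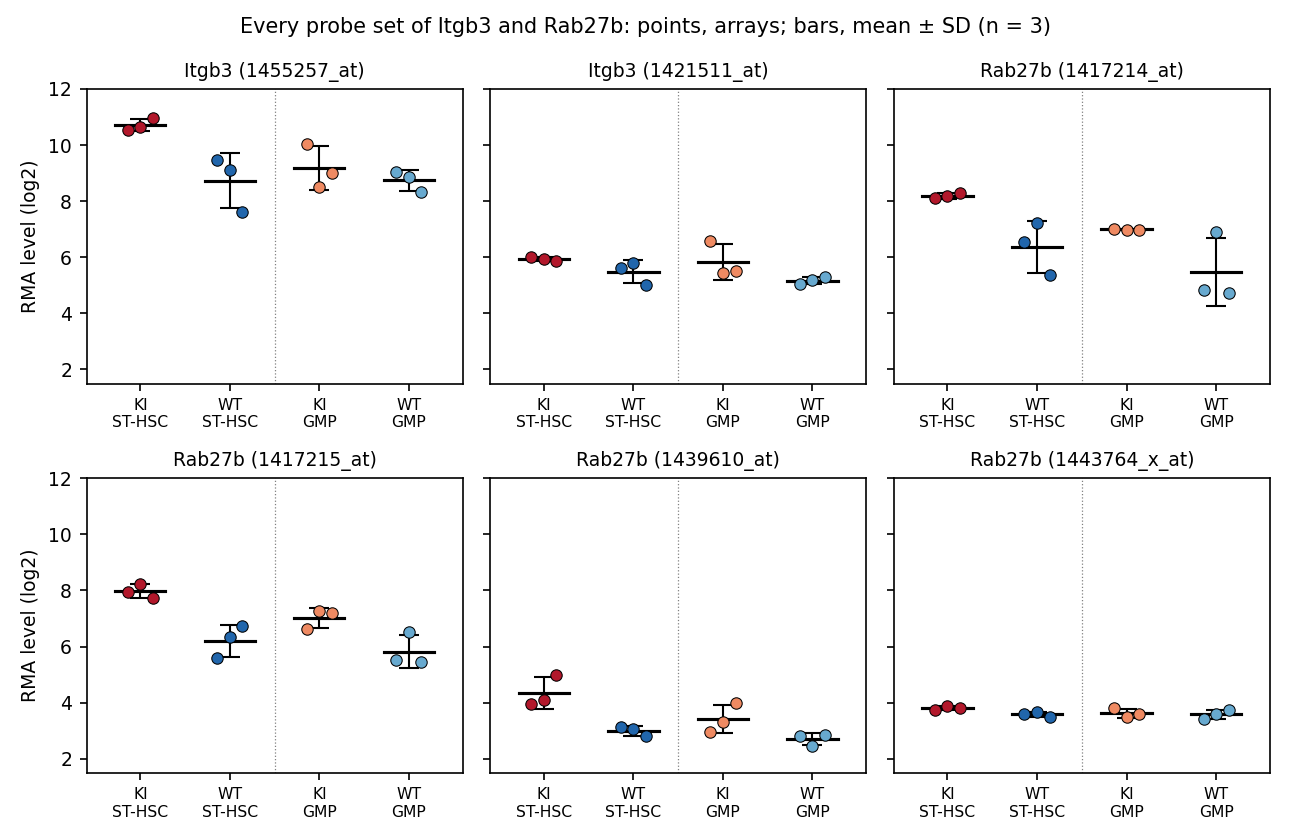
RMA log2 level (vertical axis) in each array for both probe sets of Itgb3 and all 4 of Rab27b, with groups on the horizontal axis, points for arrays and bars for the mean ± SD of 3 arrays. The probe sets 1417214_at, 1417215_at and 1439610_at of Rab27b have every KI array above every WT array in both populations, and 1443764_x_at stays between 3.42 and 3.88.

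**Figure D3:**
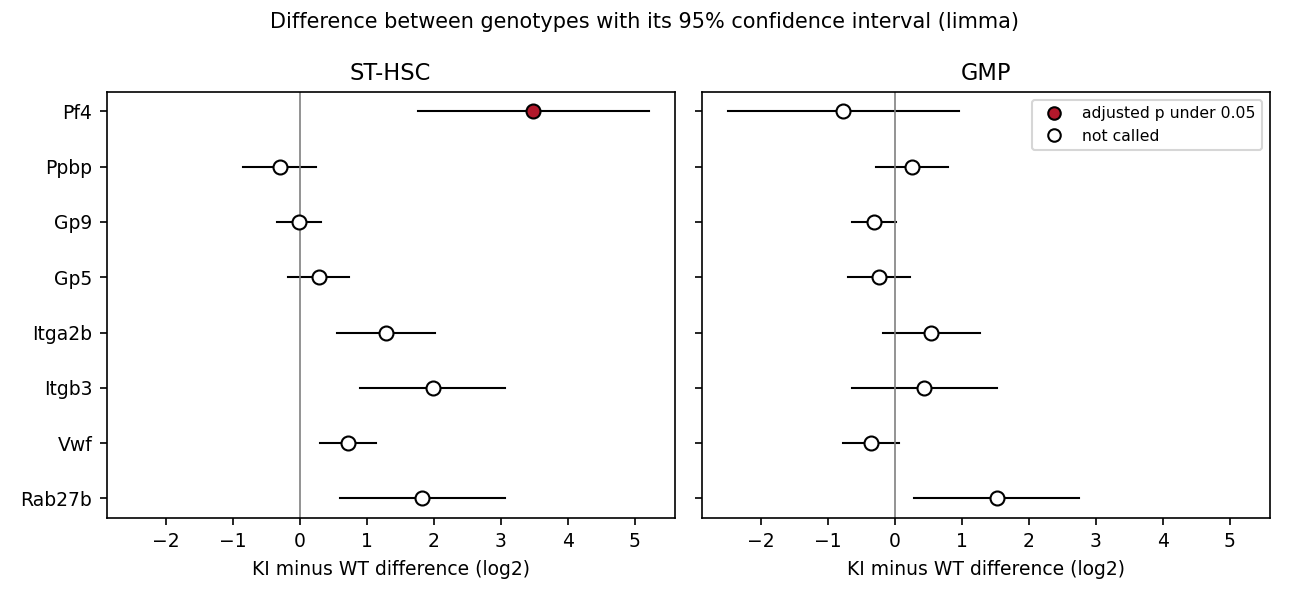
KI minus WT difference on the log2 scale (horizontal axis) of each gene with its 95% confidence interval from limma, in ST-HSC (left) and GMP (right), with a filled point where the adjusted p is under 0.05. In ST-HSC the intervals of Pf4, Itga2b, Itgb3, Vwf and Rab27b lie above 0, and in GMP that of Rab27b does. The intervals carry no correction for multiple testing.

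The genes did not vary alike from array to array. After the mean of each population was subtracted, Pearson's r over the 12 arrays was 0.87 between Itga2b and Rab27b, 0.84 between Itga2b and Itgb3, and 0.85 between Pf4 and Vwf, but 0.33 between Pf4 and Rab27b. Gp9 was related to Itga2b and Itgb3 at r of -0.25 and -0.20. These values hold the genotype difference as well as the spread within groups, and are descriptive. A common normalization of the ST-HSC and GMP arrays is not certain. The genes most like Rab27b by this measure among 9698 genes were Tgfbr3, Gata2 and Slpi (r of 0.98, 0.97 and 0.97). For Itga2b they were Irak3, Hdc and Papss2 (0.95, 0.94 and 0.94), and for Itgb3 Papss2, Slamf1 and Aprt (0.92, 0.92 and 0.91). Pf4 was most like Tmem163, Gna14 and Gstm1 (0.94, 0.93 and 0.92), and Gp9 most like Clstn3, Lmf1 and Sema6b (0.90, 0.90 and 0.88). For Vwf they were Col18a1, Norad and Spcs3 (0.92, 0.88 and 0.87), while those of Ppbp (Ttc39a, Cdkn2c and Dntt, 0.89 to 0.90) and Gp5 (Pitx1, Cldn3 and Cacng8, 0.92 to 0.94) rest on levels near the low end of the arrays.

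Beyond these genes, 4 lists of the megakaryocyte program held 63 measured genes. In KI ST-HSC 8 of the 63 rose and 1 fell, with a median difference of 0.41, and 25 had KI arrays wholly above and 10 wholly below the WT arrays. Over all genes in ST-HSC, 1.33% rose, 1.68% fell, 10.9% lay wholly above and 11.2% wholly below. In KI GMP 8 rose and 1 fell, with a median of 0.22, and 17 had KI arrays wholly above and 4 wholly below, beside 1.19%, 1.4%, 8.26% and 11.1% of all genes in the same order. These 18 calls of list genes depended on the test: the methods' t-test kept 0 of them after adjustment (18 of 18 had an unadjusted p under 0.05), SAM kept 2 (Gfi1b and F2r in ST-HSC), and 8 were kept from the 6 arrays of a population alone. With Xist as a covariate 7 were kept. Of 14 transcription factor and signaling genes, 3 rose in ST-HSC and 2 in GMP. Gfi1b, which acts in both megakaryocyte and erythroid maturation, was at 9.23, 8.79 and 9.19 in KI and 6.36, 6.20 and 5.90 in WT ST-HSC, a rise of 2.92 (standard error 0.19, adjusted p = 3.83e-05). Gfi1b rose by 1.71 in GMP (adjusted p = 0.00142). Gata2, a factor of stem cells and early megakaryocytes, rose by 1.86 in ST-HSC (adjusted p = 0.0325) and was 1.60 higher in GMP without passing (adjusted p = 0.0639). Nfe2, a factor of platelet release, rose by 0.80 in ST-HSC (adjusted p = 0.0356) and 0.81 in GMP (adjusted p = 0.0372). The calls of Gata2 in ST-HSC and of Nfe2 in both populations were lost in 6, 8 and 9 of the 12 fits that left out 1 array, and those of Gfi1b in none.

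Of 19 platelet receptors and adhesion molecules, 3 rose in each population and none fell. Over all genes, 1.33% rose and 1.68% fell in ST-HSC, and 1.19% rose and 1.4% fell in GMP. Gp1bb, a further subunit of the GPIb-IX-V complex, was at 7.08, 6.38 and 6.69 in KI and 4.99, 5.00 and 5.00 in WT ST-HSC and rose by 1.72 (adjusted p = 0.0321), and it rose by 2.86 in GMP (adjusted p = 0.0026). F2r, a thrombin receptor, rose by 2.67 in ST-HSC (adjusted p = 0.0203) and 3.79 in GMP (adjusted p = 0.00386). Clec1b, the podoplanin receptor, rose by 1.46 in ST-HSC (adjusted p = 0.00712), and Pecam1, an adhesion molecule shared with endothelium and leukocytes, rose by 1.79 in GMP (adjusted p = 0.0432). Leaving out 1 array of the 12 lost the ST-HSC calls of Gp1bb in 7 fits and of F2r in 6, and it lost neither their GMP calls nor that of Clec1b. From the 6 GMP arrays alone, however, the GMP calls of Gp1bb and F2r were lost (adjusted p of 0.0613 and 0.081).

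Of 19 granule genes, 1 rose in ST-HSC (Rab38, a GTPase of lysosome-related organelles, by 0.98, adjusted p = 0.0243), and 3 rose and 1 fell in GMP. Mmrn1, a granule protein that binds factor V, rose by 3.18 (adjusted p = 0.0102), Thbs1, thrombospondin, by 2.66 (adjusted p = 0.0414) and Plek, a substrate of protein kinase C, by 1.02 (adjusted p = 0.0489). F13a1, a coagulation factor subunit that monocytes and macrophages also make, fell by 3.70 in GMP (adjusted p = 0.0398). Of 11 cytoskeletal and eicosanoid genes, Tuba8, a tubulin, rose by 2.38 in ST-HSC (adjusted p = 0.000594), and Tbxas1, thromboxane synthase, which macrophages also make, fell by 1.28 in ST-HSC (adjusted p = 0.02). In GMP limma called 0 of these 11 genes, and at an unadjusted p under 0.05 it gave 2 higher and 1 lower, where 15.9% of all genes passed. For the counts after adjustment in both lists, the shares of all genes were 1.33% higher and 1.68% lower in ST-HSC. In GMP these shares were 1.19% and 1.4%. Pecam1, Thbs1, Plek and F13a1 each lost the call in 8 or 9 of the 12 fits that left out 1 array, Rab38 in 5 and Tbxas1 in 4, and Mmrn1 and Tuba8 in none. Mmrn1 was not called from the 6 GMP arrays alone (adjusted p = 0.12) or with Xist as a covariate (adjusted p = 0.0542), and its difference was 1.44 (adjusted p = 0.0131) in the mean of its probe sets.

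**Figure D4:**
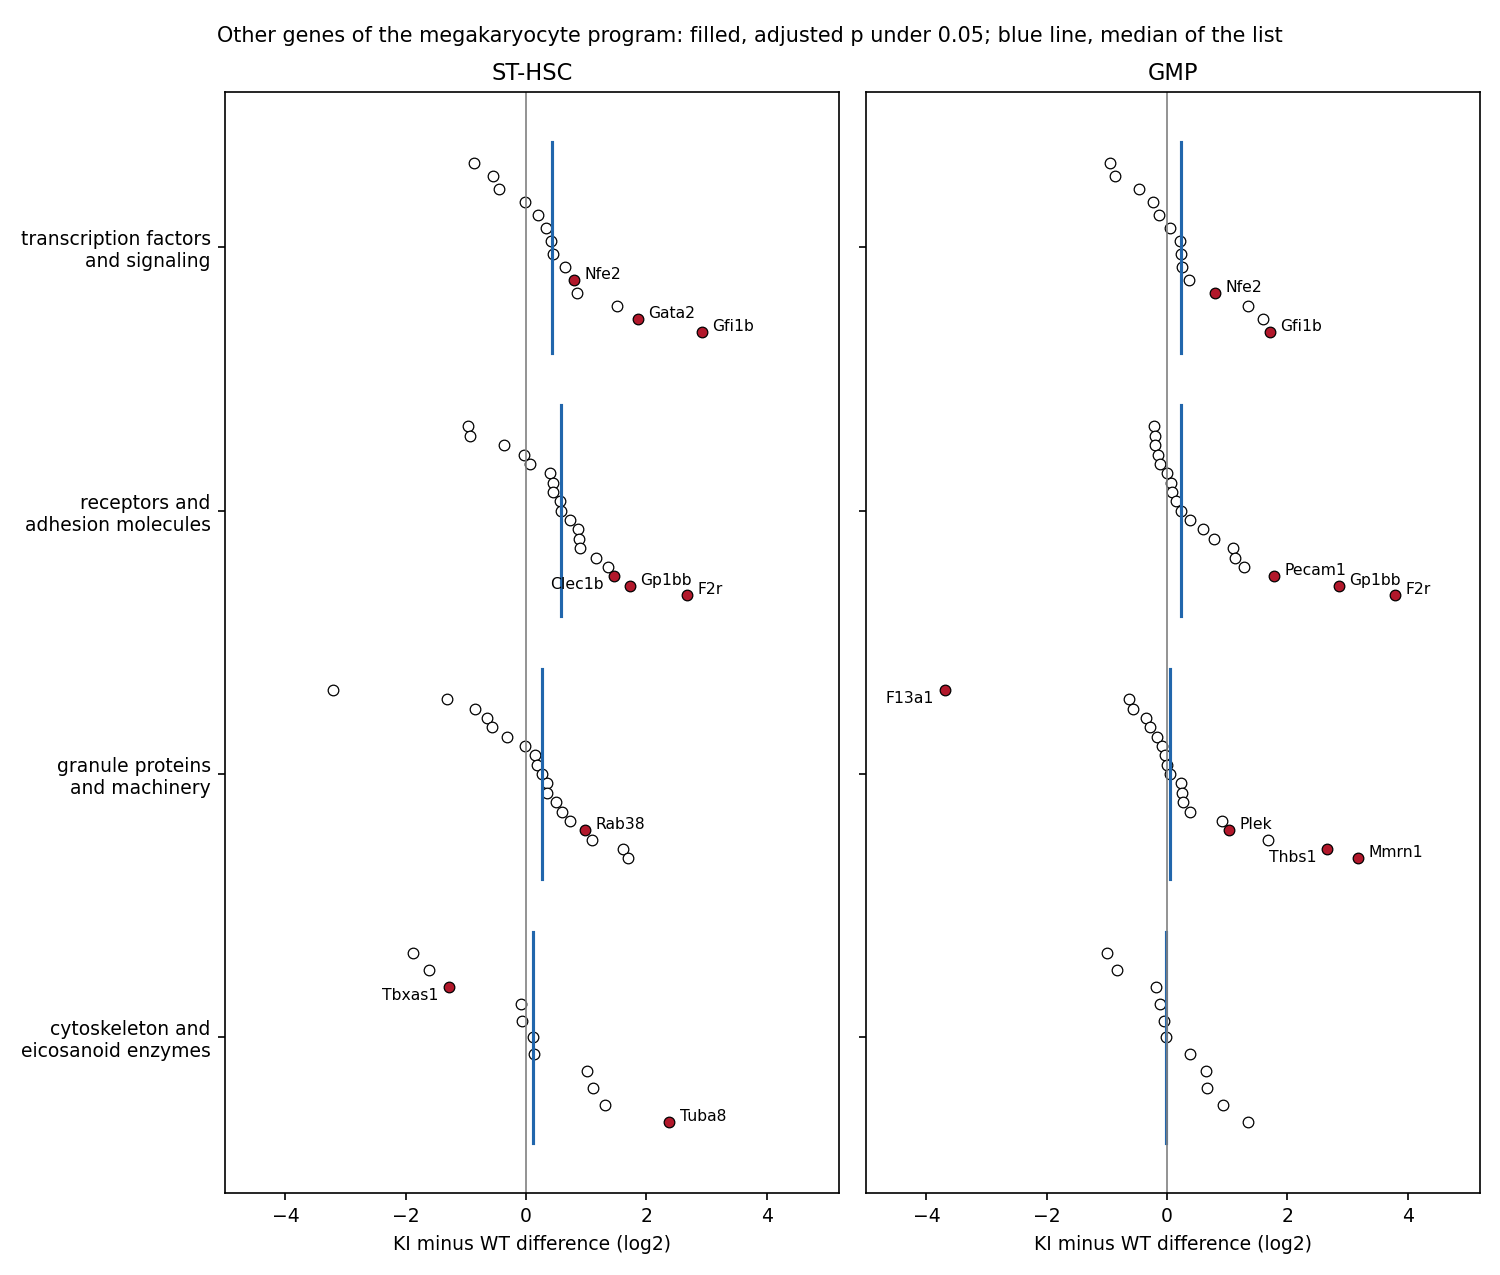
KI minus WT difference on the log2 scale (horizontal axis) of each measured gene of the 4 lists (vertical axis, ordered within a list), in ST-HSC (left) and GMP (right), with filled, named points for an adjusted p under 0.05 and a blue line at the median of the list. The medians lie between 0.12 and 0.58 in ST-HSC and between -0.02 and 0.24 in GMP.

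Markers of other cells moved with the genotype too. Over all genes, 1.33% rose and 1.68% fell in ST-HSC, and 1.19% rose and 1.4% fell in GMP. At an unadjusted p under 0.05, limma gave 14.3% of all genes in ST-HSC and 15.9% in GMP. Of 13 erythroid genes, 4 rose in KI ST-HSC (Rhag by 1.38, Alas2 by 0.97, Car1 by 3.32 and Ermap by 2.31, with adjusted p of 0.00296, 0.00684, 0.00856 and 0.0388), and their mean level ranged from 6.06 to 6.59 in KI and from 5.22 to 5.54 in WT. In GMP 0 of 13 passed by limma (2 higher at an unadjusted p under 0.05), and the ranges were 4.90 to 5.15 in KI and 4.27 to 4.84 in WT. There 2 of 13 had KI arrays wholly above the WT arrays and 1, Alas2, wholly below. In ST-HSC, Rhag and Alas2 lay below the array medians of 5.00 to 5.10, where RMA compresses differences. Slc4a1, Trim10, Hba-a1, Hba-x and Hbb-y differed in ST-HSC by -0.86, -0.23, -0.21, -0.17 and -0.02 without passing. Of 9 mast cell and basophil genes, 4 rose in ST-HSC (Cpa3, Gzmb, Hdc and Mcpt8; mean levels of 6.50 to 6.84 in KI and 5.41 to 6.59 in WT). In GMP 3 rose (Gzmb, Cpa3 and Cma1) and 1 fell (Ms4a2), with mean levels of 6.87 to 7.67 in KI and 6.74 to 7.24 in WT. Slamf1, the gene of CD150, against which the ST-HSC were gated, was the 1 of 11 long-term stem cell genes that rose in ST-HSC. It rose by 1.92 (limma adjusted p = 0.00132), and mean levels of the list were 7.02 to 7.56 in KI and 6.89 to 7.46 in WT. Limma called none of the list in GMP, with 2 higher at an unadjusted p under 0.05. Its mean levels there were 5.01 to 5.50 in KI and 5.01 to 5.19 in WT. Neither SAM nor the methods' t-test after adjustment kept any of these erythroid, mast cell and stem cell calls. Leaving out 1 array lost the call of Hdc in 4 of 12 fits, of Cma1 in 8 and of Cpa3 in GMP in 1. Ermap and Mcpt8 were not run under the alternatives.

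Of 12 macrophage genes, Csf1r, Mpeg1 and Aif1 fell in ST-HSC, where the mean level of the list was 3.997 to 4.34 in KI and 6.04 to 6.65 in WT. Csf1r and Mpeg1 also fell in GMP (4.31 to 4.46 in KI and 5.46 to 5.89 in WT). Over all genes, 1.68% fell in ST-HSC and 1.4% in GMP. Of 10 hepatocyte genes, Afp and Hnf4a fell in ST-HSC (5.79 to 5.99 in KI and 6.53 to 7.16 in WT), and Afp, Hnf4a and Krt18 in GMP (5.07 to 5.41 in KI and 5.89 to 6.93 in WT). The methods' t-test kept none of these macrophage and hepatocyte calls after adjustment. SAM kept those of Csf1r in ST-HSC and of Mpeg1 in both populations. Leaving out 1 array lost the GMP calls of Csf1r in 9 of 12 fits and of Krt18 in 4, and the ST-HSC call of Hnf4a in 3. With probe sets averaged, Afp in ST-HSC (limma adjusted p = 0.145) and Hnf4a in GMP (adjusted p = 0.0512) did not pass. Limma called 0 of 12 endothelial genes in either population. At an unadjusted p under 0.05 it gave 2 higher and 3 lower in ST-HSC, where 14.3% of all genes passed. In GMP it gave none, where 15.9% of all genes passed. Mean levels were 5.67 to 6.08 in KI and 5.76 to 5.97 in WT ST-HSC. In GMP they were 4.50 to 5.08 in KI and 4.61 to 4.85 in WT. Vwf is itself an endothelial gene, and the list did not move one way beside it in ST-HSC: Sox18 was 3.43 higher (adjusted p = 0.0864) and Tie1 1.48 higher (adjusted p = 0.245), each with every KI array above every WT array. Tek, Ramp2 and Emcn differed by -2.004, -1.36 and -1.08, with adjusted p of 0.136, 0.189 and 0.239, and Ramp2 had every KI array below every WT array. Of the 12 genes, 3 had KI arrays wholly above and 1 wholly below in ST-HSC, beside 10.9% and 11.2% of all genes. The defining genes Cdh5 and Kdr differed by -0.08 and 0.04 in ST-HSC (adjusted p of 0.939 and 0.965). Both were low on the arrays, at percentiles 22.5 to 41.1 (Cdh5) and 24.9 to 44.9 (Kdr), where RMA compresses differences. A change in the kinds of cells inside a gate and a change of RNA per cell cannot be told apart in these sorted bulk samples, and the part of other cells in the values above was not tested.

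Array medians, which RMA brings close together, were 5.00 to 5.10 in ST-HSC and 4.70 to 4.79 in GMP, and correlations between replicates were 0.963 to 0.990. As the medians of the populations do not meet, levels of ST-HSC and GMP are given side by side and were not tested against each other. Spi1, the gene of PU.1, was 0.17 higher in KI ST-HSC (adjusted p = 0.798) and 0.39 higher in KI GMP (adjusted p = 0.384), and its probe set cannot show a point mutation, so the genotype was not checked. Xist, read only from an inactive X, was at 10.7 to 11.7 in WT replicates 1 and 3 of both populations and at 2.98 to 3.78 in the other 8 arrays, so a high Xist level was found in WT samples alone, and sex is not balanced between the genotypes. With the Xist level as a covariate the difference of Pf4 in ST-HSC was 4.37 (adjusted p = 0.0424). Leaving out WT replicates 1 and 3 leaves 1 WT array in each population, which the fit assumes to vary like the KI arrays, so these differences are given without a test. In ST-HSC they were 4.27 for Pf4, 0.56 for Itga2b, 1.59 for Itgb3, 0.92 for Vwf and 0.99 for Rab27b, and in GMP that of Rab27b was 0.11 in place of 1.52.

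**Figure D5:**
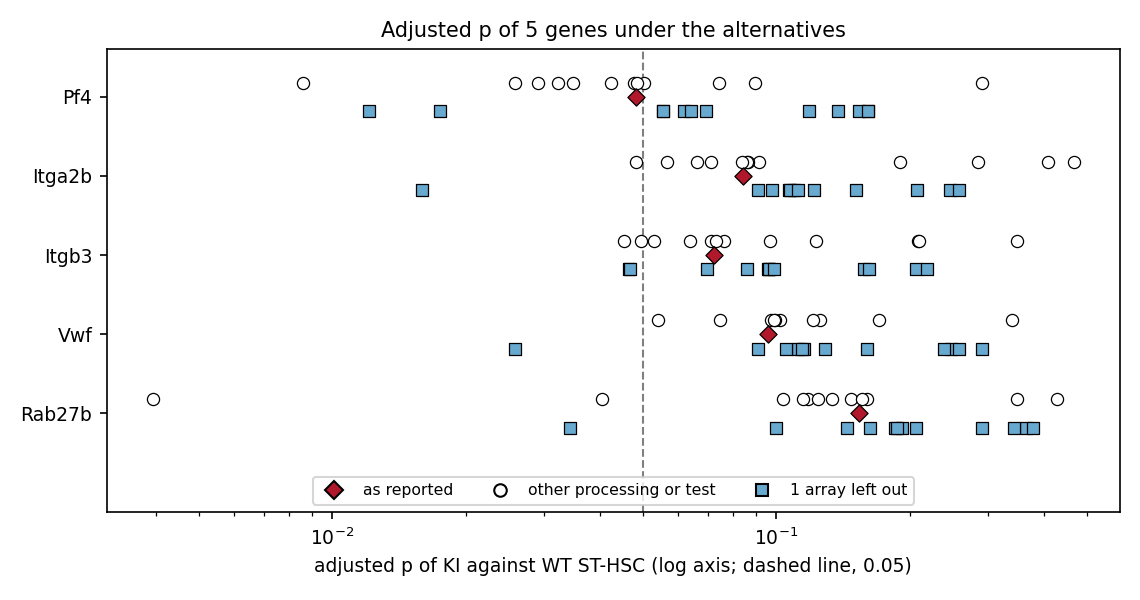
Adjusted p of KI against WT ST-HSC (horizontal log axis) for the 5 genes (vertical axis) whose KI arrays lay above all WT arrays, with a diamond for the reported fit, circles for other processing or tests and squares for fits without 1 array; the dashed line is at 0.05. Pf4 lies at 0.0483 with alternatives on both sides of the line, and the other 4 genes lie mostly above it.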

How the data were processed

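The deposited values are log2 levels that the authors made with RMA in R-Bioconductor from Affymetrix MG430 v2 arrays, after RNeasy Micro extraction and linear amplification of 10 ng of RNA per sample with the Ovation Pico system. The sources used here give no version of RMA. RMA removes differences common to a whole array and compresses differences at low signal. Each array was mapped to its group and replicate from the titles of the sample records.

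After removal of 64 control probe sets, 45037 entered the test, low ones included. The platform annotation gave 34945 of them 1 symbol, 932 several and 9160 none, and the symbols were checked against RefSeq genes of GRCm38.p6, where 0 needed an update. Each of 18193 genes was read by its probe set of highest mean level. KI minus WT was fitted with limma 3.58.1 in R 4.3.3 (4 group means, 8 residual and 2.52 prior degrees of freedom), adjusted over all probe sets, with calls under 0.05 and confidence intervals at 95%, which are not adjusted. An exact permutation test of 3 against 3 arrays cannot go below 0.1 and was not used. The fit was tested on simulated data with 200 changed probe sets. Arrays have no read depth, and the precision of a difference rests on the number of arrays and on their spread. With 3 arrays per group, standard errors of the 8 genes in ST-HSC ran from 0.15 (Gp9) to 0.78 (Pf4).

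The genes, lists and alternatives were chosen with earlier results of these data known. Named are all 9 genes with every probe set, up to 3 genes of each list in each direction with the smallest adjusted p, Spi1 and Xist, and for each gene the 3 genes of highest Pearson r. Ermap, Slc4a1, Trim10, Hba-a1, Hba-x, Hbb-y, Mcpt8, Cdh5, Kdr, Sox18, Tie1, Tek, Ramp2 and Emcn were named after their values were seen. The marker lists were endothelial, erythroid, macrophage, hepatocyte, mast cell and basophil, and long-term stem cell genes. An item of the lists is not reported here. Alternatives were other normalizations, filters, variance priors, tests and probe sets, Xist as a covariate, the replicate number as a block, and leaving out each array. The study's SAM was written anew with 20 relabellings and a median of 0 false calls. Same-numbered KI and WT arrays did not deviate together (correlations of -0.038 to 0.074), and the labels, which speak of littermates, tie no replicate number to a litter, so the numbers were not taken as pairs. Whether same-numbered ST-HSC and GMP arrays share a source was not checked. In WT, Xist was high in replicates 1 and 3 of both populations. The reported fit treats all 12 arrays as independent, also for the difference of the differences.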

Additional observations from a re-analysis of the deposited data

Results flagged for a closer look

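Tuba8, a tubulin gene of the cytoskeletal list, differed between the populations in its KI minus WT difference. Its log2 levels were 8.54, 8.15 and 8.02 in KI and 5.54, 6.30 and 5.71 in WT ST-HSC, but 7.69, 7.54 and 7.64 in KI and 7.26, 7.80 and 7.95 in WT GMP. The difference of the differences, GMP minus ST-HSC, was -2.43 (limma adjusted p = 0.0445), and leaving out 1 array took the adjusted p to between 0.0149 and 0.144. The call was lost in 10 of these 12 fits and in 7 of 10 other alternatives. In the mean of all probe sets of Tuba8 the difference of the differences was -1.83 (adjusted p = 0.0815). The fit takes ST-HSC and GMP arrays of the same replicate number as independent, which was not checked.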

How the results depend on the processing

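The count of the 8 genes that rose in KI ST-HSC was 1 as reported. It was 0 with array medians subtracted, from the 6 arrays of the population alone, by the methods' t-test and by SAM. It was 2 with a filter on log2 of at least 6 in 3 arrays, and with a trended and robust prior, and 3 with a gene's probe sets averaged. These 3 include Itga2b, which has 1 probe set and an unchanged difference, so averaging its probe sets did not make that call. Leaving out 1 array gave 0 to 3, with 0 without each KI ST-HSC array and 3 without WT ST-HSC replicate 1, and the 1 gene was Itga2b without WT ST-HSC replicate 2, Itgb3 without KI GMP replicate 1 and Rab27b without WT GMP replicate 2, in place of Pf4. It was also 2 without the WT arrays of high Xist, a fit in which 1 WT array remains in each population and is assumed to vary like the KI arrays, so that this count carries little weight. In GMP it was 0 as reported, 1 with probe sets averaged and 0 to 1 with 1 array left out. No gene fell under any of these settings. The cause of these changes was not tested.

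No pairing was established, and with the replicate block 0 genes rose in KI ST-HSC, with Pf4 at an adjusted p of 0.0894. Over the 558 values of the 8 genes under the alternatives, 518 kept their direction and side of the threshold, 15 no longer passed and 12 newly passed. The remaining 13 changed sign, each without passing: Gp9 in ST-HSC (0.0147 with quantile normalization within a population, 0.09 with Xist as a covariate, and -0.072 to 0.0279 with 1 array left out), Pf4 in GMP (0.0972 with Xist as a covariate, 0.0171 without the WT arrays of high Xist, and -1.23 to 0.0802 with 1 array left out, the latter without WT GMP replicate 3), Ppbp in ST-HSC (0.0145 without the WT arrays of high Xist, and -0.461 to 0.0153 with 1 array left out, the latter without WT ST-HSC replicate 3), and the difference of the differences of Rab27b (-0.73 to 0.39 with 1 array left out, above 0 without WT ST-HSC replicate 3 or WT GMP replicate 2). Apart from these, that of Itgb3 changed sign in its second probe set (0.22). Over the 980 values of the called list and marker genes, 717 kept their direction and side of the threshold and 263 no longer passed.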
